A study of Homo sapiens with 4 samples.

Results

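The interleukin-6 (IL-6) family and interleukin-1 (IL-1) cytokine genes were examined in human lung adenocarcinoma cells whose level of G9a, the histone methyltransferase encoded by EHMT2, had been changed. The set holds 10 genes: the ligands IL6, IL11 and LIF, the receptor chains IL6ST, OSMR and LIFR, the IL-1 family cytokines IL1A, IL1B and IL18, and the protease gene CASP1. Its members are all probe sets annotated to exactly 1 of these genes, which gave 29 probe sets of the 41039 with a single gene and 10 of 19741 genes; 1 further probe set, annotated to both CARD16 and CASP1, was not used. The groups were CL1-5 cells with a G9a shRNA (labelled shRNA2), CL1-5 cells with a control shRNA, CL1-0 cells with HA-tagged G9a and CL1-0 cells with a control vector. CL1-5 is a more invasive subline of CL1-0. All were stably transduced and selected with puromycin, and 1 Affymetrix array was hybridised per group. A single shRNA and 1 overexpression construct were used; the sources used here do not give the promoters that drive them or whether each population is a pool or a clone.

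IL-6 family cytokines act through receptor complexes that share gp130, the product of IL6ST. LIFR and OSMR pair with gp130 to receive LIF and oncostatin M, and the complexes activate JAK kinases and the transcription factor STAT3, which induces its own inhibitor SOCS3. IL-1 alpha and IL-1 beta, from IL1A and IL1B, act through IL1R1 and MYD88 on NF-kB and AP-1, and these in turn induce IL6 and many chemokines. IL-1 beta and IL-18 are made as inactive precursors that caspase-1, the product of CASP1, cleaves inside inflammasomes. Airway epithelial and tumour cells make several of these ligands without any immune cell.

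The values are deposited MAS5 intensities on a linear scale, in arbitrary units, and a probe set's level is compared across arrays and never with another probe set's. Array medians ran between 11.3 and 14.9. Signals under 3.35, the 25th percentile over all arrays, were raised to that floor. A gene entered a comparison if at least 1 of both arrays reached 12.5, the median over all arrays. Log2 ratios are given relative to the median gene of the comparison, which stood at 0.42 in the knockdown, -0.08 with HA-G9a and -0.01 between the control arrays of the lines. With 1 array per group there is no test and no replicate error. Probe sets of 1 gene disagreed with a pooled SD of 0.54, 0.51 and 0.65 on the log2 scale in those 3 comparisons, and of 0.30, 0.25 and 0.41 where the brighter array reached 84.2, the 75th percentile. In its brightest probe set EHMT2 read 28.1 with its shRNA against 376 in the CL1-5 control, and 862 with HA-G9a against 420 with the vector. This is the order the labels give. A second EHMT2 probe set read 9.98 against 34.2 and 44.2 against 38.0, relative log2 ratios of -2.20 and 0.30. Another, under the filter on all arrays, read 5.32 against 2.10 and 7.89 against 3.58.

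The labels name the type II alveolar cell as the origin of these lines. Of 8 measured type II markers, 5, 5, 3 and 4 reached 12.5 in the G9a shRNA, control shRNA, HA-G9a and vector arrays. Of 9 leukocyte markers, 3, 1, 0 and 1 did so in the same order, with summed signals of 60.5, 39.8, 38.3 and 56.5. Those that reached it were ITGAM, CD3E and CSF1R, the highest signal being 19.7 for ITGAM with the G9a shRNA. PTPRC, the pan-leukocyte gene, stayed between 2.59 and 4.17 on all arrays, and CD14 between 0.56 and 2.58.

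Promoters of the 3 cytokine genes that were at least 2-fold lower after the knockdown are shown because the relays described above end on NF-kB, AP-1 and STAT3. Each is the 250 bases before the RefSeq start site (GRCh38.p14), at chr7:22726950-22727199 on the plus strand for IL6, chr19:55370464-55370713 on the minus strand for IL11 and chr2:112836780-112837029 on the minus strand for IL1B. Capitals mark matches on either strand to TGANTCA (AP-1 type), TTCNNNGAA (STAT type) or the NF-kB type, which is GGG and CC with any 5 bases between them.
IL6: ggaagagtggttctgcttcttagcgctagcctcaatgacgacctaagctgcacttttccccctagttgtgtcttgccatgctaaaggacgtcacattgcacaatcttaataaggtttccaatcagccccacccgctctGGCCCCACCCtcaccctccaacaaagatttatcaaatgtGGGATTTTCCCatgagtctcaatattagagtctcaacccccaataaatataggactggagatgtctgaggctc
IL11: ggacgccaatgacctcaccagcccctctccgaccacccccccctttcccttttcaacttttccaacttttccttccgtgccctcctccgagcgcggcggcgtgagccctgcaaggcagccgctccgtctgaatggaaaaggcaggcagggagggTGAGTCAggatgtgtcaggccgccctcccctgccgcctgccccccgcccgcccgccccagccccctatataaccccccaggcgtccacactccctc
IL1B: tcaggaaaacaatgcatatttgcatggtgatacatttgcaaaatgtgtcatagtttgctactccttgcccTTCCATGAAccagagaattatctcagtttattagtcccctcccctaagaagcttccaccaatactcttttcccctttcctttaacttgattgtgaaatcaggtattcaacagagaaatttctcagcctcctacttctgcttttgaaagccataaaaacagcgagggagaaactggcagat
Counting back from the start site, the IL6 window held NF-kB type matches at -112 to -103 and at -73 to -64, which overlaps a further match at -72 to -63. The IL11 window held an AP-1 type match at -96 to -90, and the IL1B window a STAT type match at -180 to -172. Of 35116 RefSeq promoter windows of the same length, 54.4% held the NF-kB type, 6.57% the AP-1 type and 6.57% the STAT type. Of the 10 genes, 7 had a promoter in the table, and 4, 2 and 2 of them held the NF-kB, AP-1 and STAT type letters in at least 1 of their windows. A match is a run of letters and not a measured binding site.

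**Figure D1:**
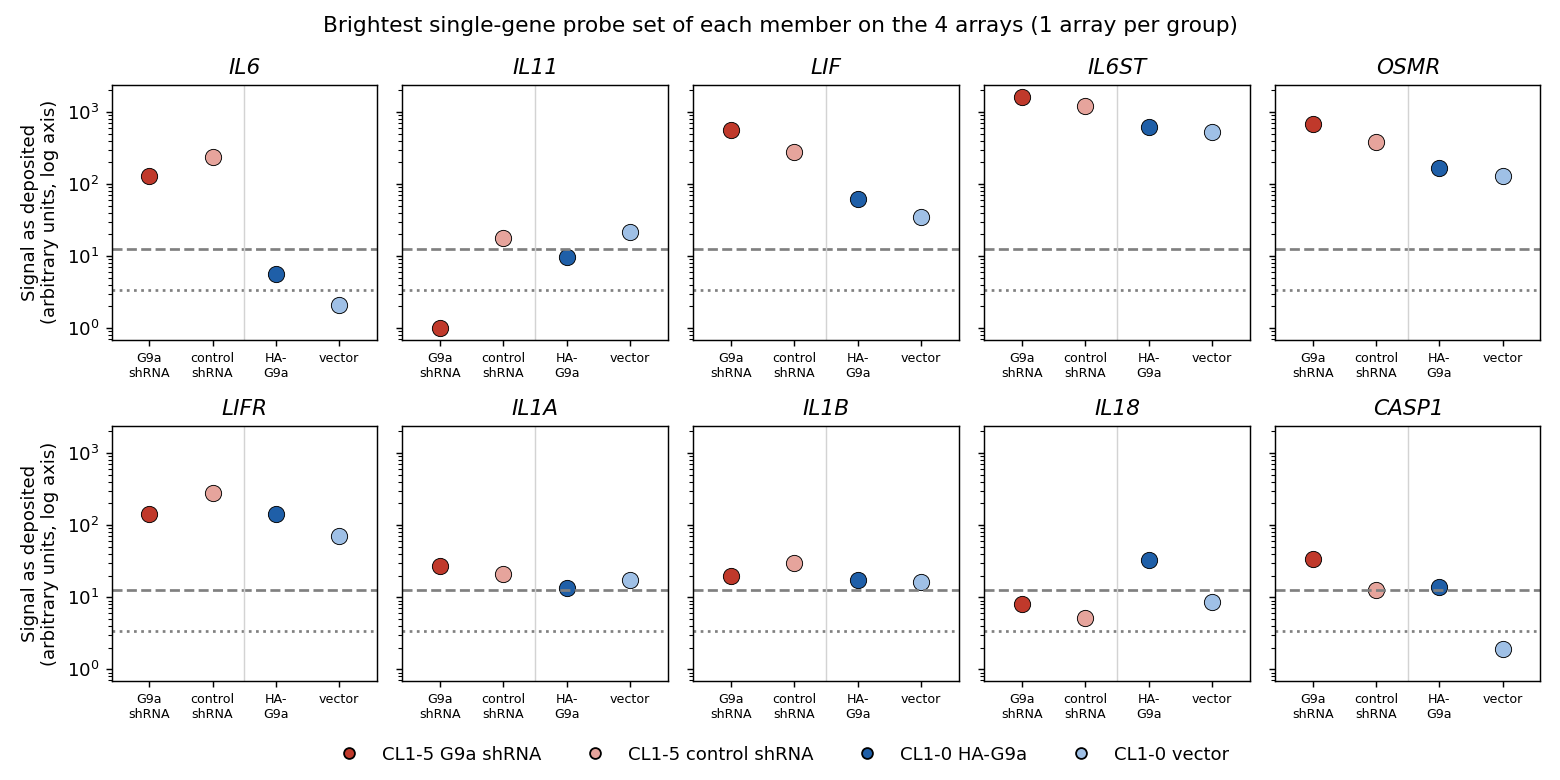
Deposited signal (arbitrary units, log axis) of the brightest single-gene probe set of each of the 10 genes, with 1 point per array; the dotted line is the floor of 3.35 and the dashed line the filter of 12.5. IL6 stands at 130 and 233 on the CL1-5 arrays and below 12.5 on both CL1-0 arrays, and LIF, IL6ST and OSMR are higher on both CL1-5 arrays than on either CL1-0 array.

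Among the IL-6 family ligands, IL6 and IL11 were lower after the knockdown while LIF was not, and IL6 separated the cell lines. IL6, the founding cytokine of the family, read 130 with the G9a shRNA, 233 with the control shRNA, 5.64 with HA-G9a and 2.06 with the vector. Both CL1-5 arrays were bright and both CL1-0 arrays lay under the filter, so IL6 was not counted in the HA-G9a comparison. Its relative log2 ratio in the knockdown was -1.26, a 2.40-fold lower level against the median gene. As deposited that ratio was -0.84, within 2-fold. In such bulk RNA, fewer cells that express a gene and less RNA per cell cannot be told apart.

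IL11, a gp130 cytokine known for fibrosis and bone metastasis, read 1.003 with the G9a shRNA, 18.0 with the control shRNA, 9.66 with HA-G9a and 21.6 with the vector. Both control arrays were the brighter of their pair, and all 4 signals were dim. The knockdown signal was below the floor, so the difference there is at least 7.19-fold relative to the median gene. With the floor raised to the median of all values the log2 ratio was -0.90, within 2-fold. With HA-G9a the relative log2 ratio was -1.08, and -0.71 with the higher floor. A second IL11 probe set stayed under the filter on all arrays, at 3.21 and 7.81 in the knockdown pair and at 9.62 and 3.54 in the HA-G9a pair, the other way round in CL1-0.

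LIF, the leukemia inhibitory factor, read 567 with the G9a shRNA, 274 with the control shRNA, 61.0 with HA-G9a and 35.1 with the vector. The perturbed array was the brighter of each pair. Its relative log2 ratio was 0.63 in the knockdown and 0.88 with HA-G9a, both within 2-fold. As deposited the knockdown ratio was 1.05, so whether LIF passed 2-fold turned on the centring.

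The receptor chains divided in the knockdown, with LIFR lower and OSMR and IL6ST within 2-fold. LIFR, the LIF receptor chain, read 143 with the G9a shRNA, 277 with the control shRNA, 144 with HA-G9a and 70.4 with the vector in its brightest probe set. The knockdown and HA-G9a arrays were nearly level, with the CL1-5 control above both and the vector below both. The relative log2 ratio was -1.38 in the knockdown and 1.11 with HA-G9a. As deposited these were -0.96 and 1.03, so the knockdown ratio then stood just within 2-fold.

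LIFR has 5 probe sets, and the 4 brighter ones shared these directions. In the knockdown their relative log2 ratios ran between -1.40 and -0.87, and 3 of the 4 were past 2-fold, as were 8.20% of all measured probe sets. With HA-G9a they were 0.70, 0.79, 1.11 and 1.58, of which 2 were past 2-fold, as were 5.86% of all measured probe sets. The remaining probe set read 3.85 with the G9a shRNA and 6.29 with the control shRNA, then 1.41 with HA-G9a and 13.6 with the vector, so in CL1-0 it ran against the others with a signal below the floor.

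OSMR, the oncostatin M receptor chain, read 668 with the G9a shRNA, 384 with the control shRNA, 164 with HA-G9a and 130 with the vector. All 3 of its probe sets gave the same order of arrays. Their relative log2 ratios were between 0.37 and 0.43 in the knockdown and between 0.42 and 0.96 with HA-G9a. These were within 2-fold, and the 3 probe sets differed less among themselves in the knockdown than in CL1-0.

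IL6ST, the shared gp130 chain, read 1632 with the G9a shRNA, 1210 with the control shRNA, 612 with HA-G9a and 522 with the vector. Of its 7 probe sets 5 were measured, and none of the 5 was past 2-fold in either pair. In the knockdown the brightest stood at 0.01 and the other 4 between -0.57 and -0.43. With HA-G9a the 5 ran between 0.21 and 0.58. The other 2 probe sets read at most 4.26 on any array.

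**Figure D2:**
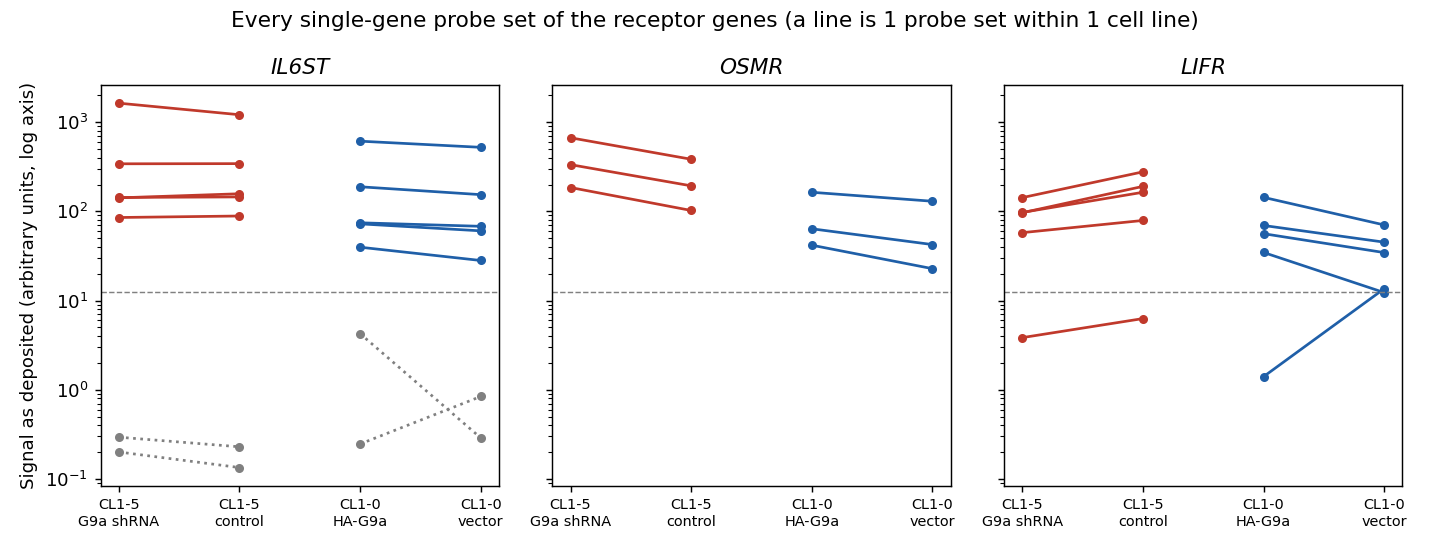
Deposited signal (arbitrary units, log axis) of every single-gene probe set of IL6ST, OSMR and LIFR; a line joins the perturbed array to its control within 1 cell line (red CL1-5, blue CL1-0, dotted grey for probe sets under the filter of 12.5 on all arrays). The 4 brighter LIFR probe sets slope up towards the control in CL1-5 and down towards the vector in CL1-0, whereas all 3 OSMR probe sets slope down towards the control in both lines.

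The IL-1 cytokines were dim, and IL1B was the one that was lower after the knockdown. IL1B, the secreted IL-1 beta, read 19.4 with the G9a shRNA, 30.1 with the control shRNA, 17.5 with HA-G9a and 16.2 with the vector. The CL1-5 control stood above the other 3 arrays, which lay close together. A second probe set read 5.24, 29.4, 6.35 and 5.18 in that order, with the same array on top. The relative log2 ratios in the knockdown were -1.05 and -2.91. As deposited the first was -0.63, and only the second probe set stayed past 2-fold, at -2.49.

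IL1A, the cell-associated IL-1 alpha, read 27.5 with the G9a shRNA, 20.8 with the control shRNA, 13.3 with HA-G9a and 17.2 with the vector. Its relative log2 ratios were -0.02 and -0.29, close to the median gene in each pair. A second IL1A probe set was under the filter throughout, at 0.97 with the G9a shRNA, 11.8 with the control shRNA, 0.79 with HA-G9a and 1.30 with the vector.

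IL18, which encodes the inflammasome-matured cytokine IL-18, read 7.94 with the G9a shRNA, 5.12 with the control shRNA, 32.7 with HA-G9a and 8.52 with the vector. The HA-G9a array stood alone above the filter, with a relative log2 ratio of 2.02 and a 4.06-fold difference. Only 1 probe set reports IL18, so no second reading bears on it, and it was not counted in CL1-5.

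CASP1, the caspase of the inflammasome, read 34.4 with the G9a shRNA, 12.6 with the control shRNA, 13.8 with HA-G9a and 1.91 with the vector in its brightest probe set. The perturbed array was the brighter of each pair. The relative log2 ratio was 1.03 in the knockdown, and with HA-G9a the difference was at least 4.35-fold, since the vector signal lay below the floor. With the floor at the median of all values the HA-G9a ratio was 0.22, and by the median over probe sets the knockdown ratio was 0.45, both within 2-fold. A second measured probe set read 16.8, 13.7, 18.2 and 8.12 in the same order, with ratios of -0.12 and 1.25, so the probe sets disagreed on the knockdown. Both are of the _x_at type, which can also hybridise to near-identical transcripts such as CARD16, so single CASP1 values are uncertain. The other 3 probe sets stayed under the filter.

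**Figure D3:**
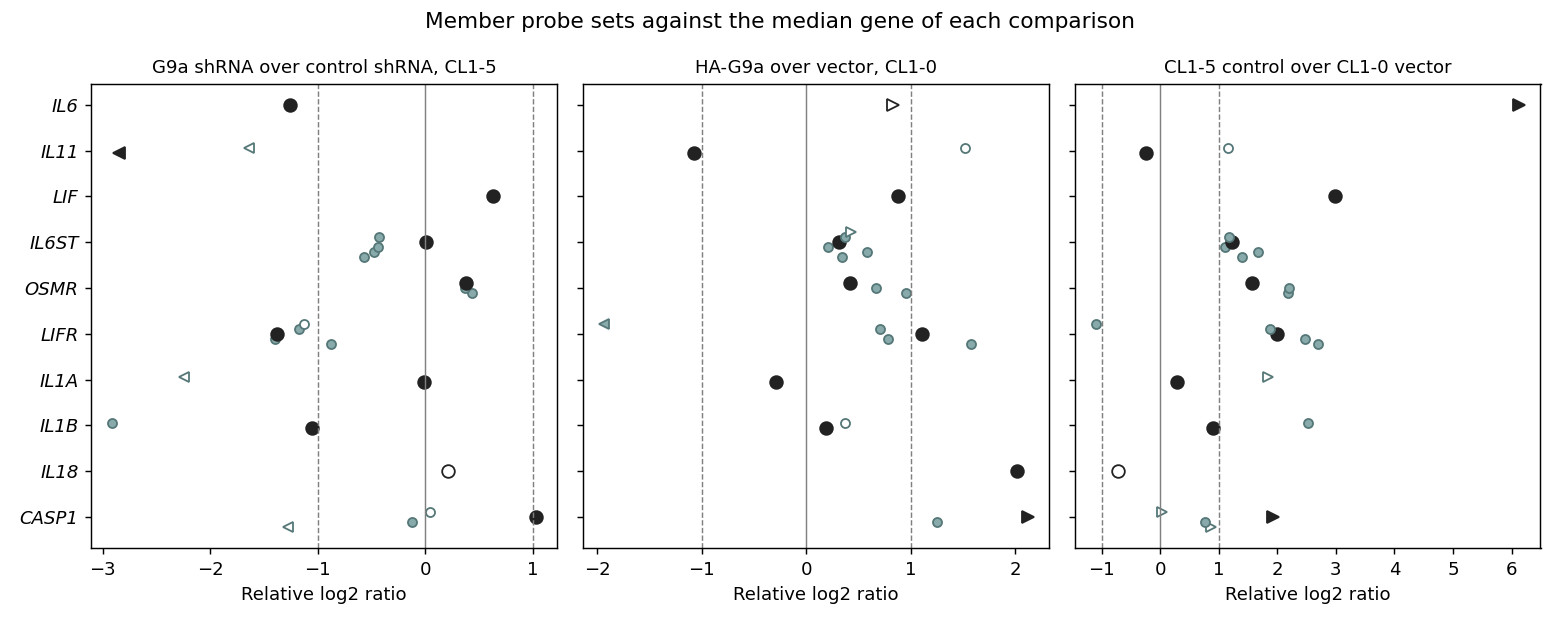
Relative log2 ratio of each member probe set in the knockdown, with HA-G9a and between the control arrays (large black: brightest probe set; small: other probe sets; open: under the filter; triangle: 1 array at the floor, pointing the way the true ratio may extend; dashed lines: 2-fold; pairs with both arrays at the floor are left out). LIFR stands at -1.38, 1.11 and 1.99 in the 3 panels, and IL6 reaches 6.13 between the lines.

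By count, 9 of the 10 genes passed the filter in the knockdown, with CASP1 at least 2-fold higher and IL6, IL11, LIFR and IL1B at least 2-fold lower. Of all 13045 genes that passed it, 8.13% were higher and 7.76% lower. IL11 passed the filter through the control shRNA array alone, so it had to read lower in the knockdown. The median relative log2 ratio of the 9 was -0.02, against 0.00 for all genes. As deposited, CASP1 and LIF were higher and IL11 alone was lower, and all genes divided into 2198 higher and 618 lower in place of 1060 and 1012. Of 5 endothelial markers 3 were lower too: PECAM1 read 81.5 against 318, CDH5 5.24 against 62.3 and ERG 13.2 against 35.2 in the knockdown and control arrays, while VWF and TEK were below the floor on both. The 5 markers summed to 105 with the G9a shRNA and 419 with the control shRNA. In the same order the 5 fibroblast markers summed to 71.9 and 29.7, the other way round. The 8 type II markers summed to 179 and 163, though NKX2-1 among them read 3.87 and 29.6. The part of any of these markers in the lower ligand signals was not tested.

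With HA-G9a 9 of the 10 genes passed the filter, of which LIFR, IL18 and CASP1 were at least 2-fold higher and IL11 at least 2-fold lower. Of all 12791 genes that passed it, 5.46% were higher and 3.74% lower. IL18 passed the filter through the HA-G9a array alone, as did CASP1, and IL11 through the vector array alone. The median of the 9 was 0.42 against 0.00 for all genes. Scaling the arrays to one median turned the split of all genes to 553 higher and 705 lower, in place of 699 and 479, and put LIFR within 2-fold. The endothelial markers summed to 41.9 with HA-G9a and 55.7 with the vector.

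Set side by side, 8 genes were measured in both pairs, which share no array. LIFR was past 2-fold lower in the knockdown and past 2-fold higher with HA-G9a, a pattern held by 1.05% of the 11883 genes measured in both. No member had the reverse pattern, held by 0.412%. CASP1 was higher in both (0.732% of genes) and IL11 lower in both (0.370%). LIFR thus followed the signal of the brightest EHMT2 probe set in each line. CASP1 and IL11 did not, but IL11 passed the filter through the control array alone in both pairs, so it had to read lower. CASP1 passed it through the HA-G9a array alone in CL1-0, so it had to read higher there. The second measured CASP1 probe set stood at -0.12 in the knockdown. The LIFR pattern was no longer past 2-fold on both sides as deposited, with the arrays scaled to one median, or by the median over its probe sets.

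Between the control arrays, the ligand genes IL6 and LIF and all 3 receptor chain genes were higher in CL1-5, and IL11 was not. IL6, LIF, IL6ST, OSMR, LIFR and CASP1 were at least 2-fold higher in the CL1-5 control, 6 of the 9 genes measured, and none was lower. Of all 12925 genes that passed the filter, 12.6% were higher and 13.2% lower, and the median of the 9 was 1.58 against 0.00. IL6 and CASP1 passed the filter through the CL1-5 control array alone, so they had to read higher there. The count and median of the members are thus partly set by the filter. These arrays also serve as the controls above, and they differ in line and in control construct, which cannot be told apart. Markers of other cell types differed as well. PECAM1 read 318 in the CL1-5 control against 13.3 with the vector, CDH5 62.3 against 5.41 and ERG 35.2 against 19.9. VWF and TEK ran the other way, at 1.97 against 10.4 and 1.86 against 6.64, all under the filter. The 5 endothelial markers summed to 419 against 55.7. The fibroblast collagen gene COL1A1 read 9.07 in the CL1-5 control against 84.2 with the vector, and the 5 fibroblast markers summed to 29.7 against 119. Their part in the member ratios was not tested.

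IL6 was at least 70.2-fold higher in the CL1-5 control, with the vector array below the floor. With the higher floor its log2 ratio was 4.23 in place of 6.13. LIF was 7.88-fold higher, a relative log2 ratio of 2.98. The receptor chains LIFR, OSMR and IL6ST had ratios of 1.99, 1.58 and 1.23. In that direction 4 of 5, 3 of 3 and 5 of 5 of their measured probe sets were past 2-fold, and the fifth LIFR probe set, with ratio -1.10, was past it the other way; of all measured probe sets 14.0% were higher and 12.3% lower. IL11, IL1A and IL1B stood at -0.24, 0.29 and 0.91 in their brightest probe sets, while the second IL1B probe set stood at 2.52. CASP1 was at least 3.79-fold higher in the CL1-5 control, a ratio of 0.02 with the higher floor.

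The share of all filtered genes with a ratio at least as extreme is given for each called gene. Genes that passed the filter through 1 array alone had their direction set by it. These were IL11 in both pairs, IL18 and CASP1 with HA-G9a, and IL6 and CASP1 between the lines. The higher floor put IL11 in the knockdown at -0.90, CASP1 with HA-G9a at 0.22 and CASP1 between the lines at 0.02, all within 2-fold. Between the lines 0.232% of genes had a ratio as high as that of IL6, and 2.49% as high as that of LIF. In the knockdown 1.13% of genes were as low as IL11, 5.00% as low as LIFR, 5.60% as low as IL6 and 7.32% as low as IL1B. With HA-G9a 1.31% of genes were as high as CASP1, 1.62% as high as IL18 and 4.60% as high as LIFR. In the knockdown 7.67% were as high as CASP1, and with HA-G9a 3.28% were as low as IL11. Between the lines 5.28% were as high as LIFR, 5.57% as high as CASP1, 7.21% as high as OSMR and 9.96% as high as IL6ST.

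The 8 lists of 117 further genes of these pathways were described in the same way. In the knockdown 83 were measured, of which 4 were higher and 15 lower, beside 8.13% and 7.76% of all genes. As deposited 4 of the higher and 4 of the lower remained past 2-fold, the lower being SOCS3, NLRP3, MEFV and MMP1. With HA-G9a 13 of 79 were higher and 6 lower, beside 5.46% and 3.74% of all genes. In the CL1-5 control against the vector 28 of 82 were higher and 6 lower, beside 12.6% and 13.2%. Genes that passed the filter through 1 array alone are among those counted. Such genes had to read higher on that array, so these counts and medians are partly set by the filter. Among them, in the list induced by IL-1 and NF-kB, were 5 of the 6 genes higher with HA-G9a. In that list they were also 4 of the 5 higher in the CL1-5 control. The medians of all listed genes were -0.22, 0.12 and 0.55, against 0.00 for all genes in each comparison.

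Other ligands and receptors of the IL-6 family were mostly within 2-fold. In the knockdown 1 of 6 measured was lower and none higher (median 0.06), namely IL27RA, a receptor chain for IL-27, at 78.4 against 122. With HA-G9a 1 of 4 was lower (median -0.41), CNTFR, a ciliary neurotrophic factor receptor chain, at 14.0 against 30.0. Between the lines 1 of 6 was higher (median 0.19), IL27, at least 4.02-fold from a dim signal of 13.4 in the CL1-5 control.

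In the JAK-STAT relay SOCS3, the feedback inhibitor of gp130 signalling, had the same pattern as LIFR. It read 101 with the G9a shRNA against 284 with the control shRNA, and 191 with HA-G9a against 54.3 with the vector, relative log2 ratios of -1.92 and 1.90. Both were past 2-fold as deposited too, at -1.50 and 1.81, though 1 of 4 measured probe sets had the other sign with HA-G9a. By the median over its probe sets the HA-G9a ratio was 0.92, within 2-fold, and the knockdown ratio -1.50. In the knockdown 2 of 13 measured genes were lower and none higher (median -0.13), the other being the kinase gene JAK2 at 69.0 against 113. With HA-G9a 1 was higher and 2 lower (median -0.02), STAT5A at 6.52 against 18.7 and the growth hormone pathway inhibitor SOCS2 at 60.4 against 161. Between the lines SOCS3 and SOCS1 were higher, with ratios of 2.40 and 2.14, and SOCS2 lower at -1.29 (median 0.21). There 1 of 4 SOCS3 probe sets and 1 of 2 SOCS1 probe sets had the other sign.

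Among STAT3 target genes, some of which other factors also drive, 1 of 11 was higher and 1 lower in the knockdown (median 0.16). FOS, an AP-1 subunit, read 48.9 against 14.0, and BCL6, a transcriptional repressor, 74.0 against 144. With HA-G9a 4 of 14 were higher, 2 of them measured through the HA-G9a array alone, and none lower (median 0.34). SERPINA3, an acute phase protease inhibitor, was at least 7.97-fold higher from a signal of 25.2, and FOS at least 4.12-fold from 13.04. TIMP1, a metalloproteinase inhibitor, read 703 against 214 and the early response gene IER3 478 against 191. Between the lines 6 of 13 were higher and 3 lower (median 0.69). Of these, 1 higher gene was measured through the CL1-5 control alone and 2 lower genes through the vector array alone. The cyclin gene CCND1 had a ratio of 4.73 and IER3 of 3.82, while the fibrinogen chain gene FGG was at -6.19 and FGB at least 11.3-fold lower in the CL1-5 control.

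Other IL-1 family ligands and receptors were mixed in the knockdown, with 2 of 11 higher and 3 lower (median -0.47). Both higher genes were measured through the G9a shRNA array alone, and 1 of the lower through the control shRNA array alone. The higher ones were IL37, an anti-inflammatory family member, at 27.8 against 5.56, and IL1F10, at least 3.33-fold from a signal of 14.96. The decoy receptor gene IL1R2 read 14.9 against 25.5 and IL18BP, which encodes the IL-18 binding protein, 12.3 against 20.3. IL1RAP, the IL-1 receptor accessory chain, had a ratio of -1.09 and is named after its value was seen. As deposited none of these 3 lower genes was past 2-fold, and 3 genes of the list were higher. With HA-G9a 1 of 8 was higher and 1 lower (median 0.04): IL1RN, the IL-1 receptor antagonist, was at least 4.63-fold higher from 14.7, and IL1RL1 at least 3.76-fold lower from 13.4. Between the lines 5 of 8 were higher, 3 of them measured through the CL1-5 control alone, and none lower (median 1.46). IL1R1, the signalling receptor for IL-1, read 257 against 88.2, IL18R1 was at least 18.4-fold higher from 61.1, and IL1R2 and IL1RL2 had ratios of 2.63 and 2.55.

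The IL-1 receptor relay was near the median gene in the knockdown, where none of 12 measured genes passed 2-fold (median 0.02). With HA-G9a 1 of 13 was higher and 1 lower (median 0.12), IRAK3, a brake on the relay, at 14.7 against 5.14 and the ubiquitin ligase gene TRAF6 at 33.5 against 73.3, with 1 of 2 TRAF6 probe sets of the other sign. Between the lines the adaptor gene MYD88 read 202 against 22.7 and the kinase gene IKBKB 30.7 against 70.9 (median of 12 genes 0.29).

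Of the inflammasome and processing genes, 3 of 11 were lower and none higher in the knockdown (median -0.25). Of those 3, 2 were measured through the control shRNA array alone. The sensor gene NLRP3 read 6.87 against 22.0, CARD8, an inflammasome sensor, 243 against 427, and MEFV, which encodes pyrin, was at least 5.91-fold lower from 14.8. CASP1 itself did not go with them. With HA-G9a 1 of 8 was lower (median -0.11), MEFV again, at least 3.96-fold from 14.1. Between the lines 5 of 11 were higher, 3 of them measured through the CL1-5 control alone, and none lower (median 0.09). GSDMD, the pore-forming substrate of caspase-1, read 166 against 4.86, CASP4 37.9 against 3.80, CARD8 427 against 107, and NLRP3 was at least 6.63-fold higher from 22.0.

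NF-kB subunits and inhibitors stayed mostly within 2-fold. In the knockdown 2 of 10 were lower (median -0.28), RELB at 41.3 against 68.7 and the feedback inhibitor TNFAIP3 at 40.9 against 61.5, neither past 2-fold as deposited. With HA-G9a none of 10 passed (median 0.21). Between the lines 3 of 10 were higher (median 0.61), NFKBIZ with a ratio of 2.68, RELB with 1.77 and TNFAIP3 with 1.38.

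Genes that IL-1 and NF-kB induce divided in the knockdown, and most of those measured with HA-G9a were dim with the vector. With HA-G9a 6 of 9 measured were higher and none lower (median 1.70). Of these 6, CXCL8, CCL2, MMP1, CXCL2 and ICAM1 passed the filter through the HA-G9a array alone, so they had to read higher there and the count and median are partly set by the filter; CXCL2 and ICAM1 are named here after their values were seen. With no filter 6 of 14 were higher, and at a filter of 84.2 no gene of the list was measured. The chemokine genes CCL2 and CXCL8 read 42.0 against 4.64 and 36.4 against 4.46, the collagenase gene MMP1 27.3 against 3.98 and TNFAIP2 45.5 against 13.8. In the knockdown 1 of 9 was higher and 3 lower (median -0.26). MMP1 read 16.8 against 424, the neutrophil chemokine gene CXCL1 80.8 against 151 and the adhesion gene ICAM1 12.9 against 23.3, while CXCL3 read 45.0 against 13.6. As deposited MMP1 alone was lower and 2 genes were higher. Between the lines 5 of 9 were higher, 4 of them measured through the CL1-5 control alone, and 1 lower (median 2.61), with CXCL8 at 1620 against 4.46, MMP1 at 424 against 3.98, CXCL1 at 151 against 7.12 and CXCL2 at 48.4 against 6.02.

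**Figure D4:**
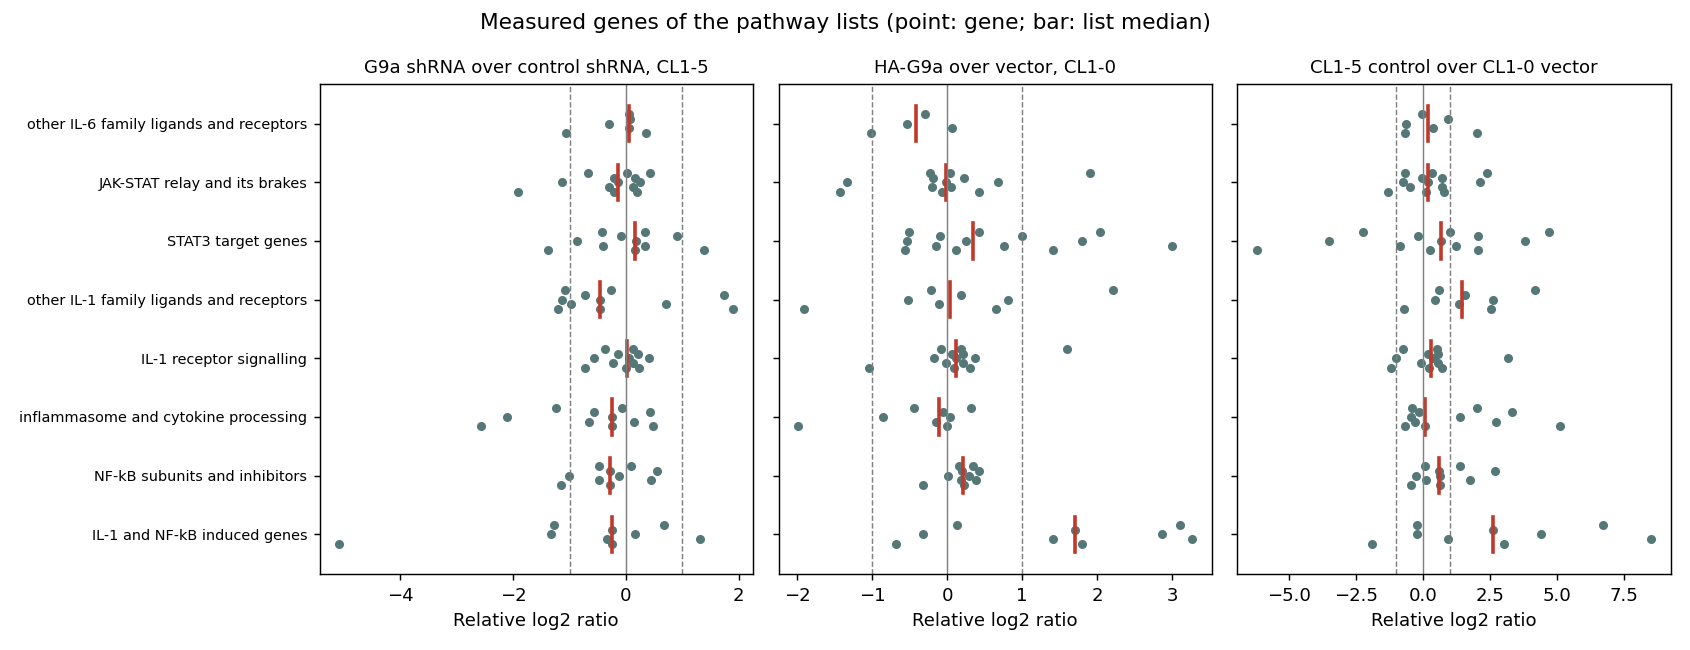
Relative log2 ratio of each measured gene of the 8 pathway lists in the knockdown, with HA-G9a and between the control arrays (point: gene; red bar: list median; dashed lines: 2-fold; the axes differ between panels). The NF-kB genes have medians of -0.28, 0.21 and 0.61; of the 9 induced genes in the bottom row, 5 passed the filter through the HA-G9a array alone in the HA-G9a panel.

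Patterns over the 4 arrays were compared for the genes bright enough and variable enough, which were IL6, LIF and OSMR. Signals below the floor were first raised to it. Likeness was the Euclidean distance between the 4 log2 signals after each gene's mean was subtracted, over 8883 other genes. Nearest to IL6 were F3, which encodes tissue factor (distance 0.21), CDC42EP3 (0.46) and the GTPase gene RAC2 (0.61). Nearest to LIF were CITED4 (0.26), LACC1 (0.30) and GLRX (0.32), and nearest to OSMR were EMC10 (0.14), CYRIB (0.19) and ANKRD44 (0.19). F3 read 672 with the G9a shRNA, 1272 with the control shRNA, 29.6 with HA-G9a and 15.05 with the vector, the same order of arrays as IL6. RAC2 had that order too, at 830, 1439, 34.6 and 12.8 on the same arrays. IL6 read 2.06 with the vector, below the floor, so its distances and the order of its nearest genes rest on the floor. Genes were not ranked by distance on the signals as deposited. With 4 arrays such a likeness is a description only.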

How the data were processed

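RNA from 4 transduced cell populations was measured on 1 Affymetrix array each. The authors deposited 1 linear intensity per probe set and array for 54675 probe sets; MAS5 is the tool per the submitters' processing notes, and the sources used here give neither its settings nor detection calls. Genes were named through the array's annotation table, with symbols updated by Entrez identifier against RefSeq (GRCh38.p14) for 41043 of the 41097 probe sets with 1 symbol; 58 probe sets of Y-linked genes and XIST were left out. Of several single-gene probe sets, a gene took the one that was brightest on average. Signals were raised to the 25th percentile, log2-transformed, filtered at the median of all values on the brighter array, and centred on the median gene. A fixed 2-fold threshold served as the call, with no test. The members and lists were chosen with earlier results of these data known. Always named were the 10 members and EHMT2; of each list, up to 4 genes with the largest ratio past 2-fold; and the 3 nearest patterns of members with a log2 range of at least 2. The marker genes were named after their values had been seen. Alternatives were the scaling, floor, filter and probe set choice. Python 3.11.15, pandas 2.3.3 and NumPy 2.4.6 were used, and the ratio step was tested on simulated data. Precision is limited by the number of arrays, 1 per group.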

Additional observations from a re-analysis of the deposited data

Results flagged for a closer look

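The ratio of the array with more G9a over the array with less had opposite signs in the 2 lines for a pair of genes, both past 2-fold. For IL11 the relative log2 ratio was 2.85 in CL1-5 (control shRNA over G9a shRNA) and -1.08 in CL1-0 (HA-G9a over vector); the first depends on the floor, and the brightest of the 4 signals was 21.6. With the floor at the median of all values both were within 2-fold, with a G9a shRNA over control ratio of -0.90 in CL1-5 and an HA-G9a over vector ratio of -0.71 in CL1-0. The other IL11 probe set, under the filter on all arrays, did not differ in direction between the lines. For more against less G9a it read 7.81 against 3.21 in CL1-5 and 9.62 against 3.54 in CL1-0. For CASP1 the relative log2 ratio of more over less G9a was -1.03 in CL1-5 and 2.12 in CL1-0, the CL1-0 ratio again set by the floor. With the higher floor the CL1-0 ratio was 0.22, and by the median over probe sets the G9a shRNA over control ratio in CL1-5 was 0.45, each within 2-fold. IL11 passed the filter through the control array alone in both lines, and CASP1 through the HA-G9a array alone in CL1-0. Those directions were thus set by the filter. With 1 array per group the difference between the lines was not tested.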

How the results depend on the processing

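No paired analysis was possible because each group has 1 array and no replicate. The 7 alternatives of scaling, floor, filter and probe set choice were run. Ratios as deposited, with no centring, gave 2198 genes higher and 618 lower in the knockdown (1060 and 1012 as reported), 2 members higher (CASP1, LIF) and 1 lower (IL11) in place of 1 and 4, and 0 members opposite in the lines in place of 1. That last count was also 0 with arrays scaled to one median and with the median over probe sets. CASP1 left the higher members of the knockdown under quantile normalization and under the median over probe sets (0 members). A floor at the median of all values gave 679 genes higher in the knockdown, 332 higher and 204 lower with HA-G9a, 0 members lower there, and IL11 in the knockdown (-0.90) and CASP1 with HA-G9a (0.22) within 2-fold. The filter at 84.2 left 410 genes higher and 437 lower in the knockdown, 124 and 63 with HA-G9a, and 851 and 786 between the lines; it tests fewer genes. Of the members it kept 0 higher and 2 lower in the knockdown (IL6, LIFR), and 1 higher (LIFR) and 0 lower with HA-G9a. No filter gave 1675 and 1569 genes in the knockdown and 1225 and 1095 with HA-G9a. No called ratio of a member changed sign. The 6 genes higher in the CL1-5 control kept that call under every alternative in which they passed the filter, except CASP1 with the higher floor (0.02). Where no cause is given above, the cause was not tested. IL11, IL1A, IL1B, IL18 and CASP1 stayed below 84.2 on all arrays, where signals near background limit any ratio.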
